A study of Mus musculus with 2 samples.

Results

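The genes described here encode the activin and Nodal signalling system: 10 genes, chosen by name out of 20053 named genes on the array. These genes were chosen with earlier results of these data known. They were taken as every gene probe filed under Inhba, Inhbb, Nodal, Acvr1b, Acvr2a, Tdgf1, Lefty1, Lefty2, Fst or Fstl3, which gave 14 probes. RNA came from expandable hepatoblasts, progenitor cells of mouse liver (strain C57BL/6) propagated in culture, at passage 20 and at passage 5, with 1 Agilent 1-colour array for each. Both cultures were kept in the same defined medium, on Matrigel or laminin (the labels do not say which for either array), with 10 ng/ml EGF, 3 μM CHIR99021 (an inhibitor of the kinase GSK3), 2 μM E-616452 (which blocks the kinase ALK5, a type I receptor for TGF-beta), 5 μM lysophosphatidic acid and 0.5 μM sphingosine 1-phosphate. No array without E-616452 or the other factors was analysed here, so every value below is that of cells growing under this inhibitor. The labels give the cultures as derived from independent experiments, so passage and experiment cannot be told apart, and no difference below has a replicate check.

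Activins are secreted dimers of the inhibin beta subunits made from Inhba and Inhbb, and Nodal is a related ligand of the early embryo. All of them signal through a pair of serine/threonine kinase receptors, such as the type II receptor ActRIIA (Acvr2a) with the type I receptor ALK4 (Acvr1b), which phosphorylate SMAD2 and SMAD3; Nodal also needs the membrane coreceptor Cripto (Tdgf1). The pathway is restrained outside the cell: follistatin (Fst) and follistatin-like 3 (Fstl3) trap activins, and the Lefty proteins block Nodal and Cripto, with Lefty genes themselves induced by SMAD signalling in the embryo. In liver, activin A is known for limiting hepatocyte growth and follistatin for counteracting it.

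The probes of 3 members carry most of what follows, and their letters show what each spot reads. Each probe is a 60-base oligonucleotide in the sense direction. The sequences of the Inhba and Fst probes are given whole, and for the paralogs Lefty1 and Lefty2 the first 30 bases are given so that the pair can be compared.
Inhba probe: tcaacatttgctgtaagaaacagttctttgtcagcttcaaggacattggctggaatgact
Fst probe: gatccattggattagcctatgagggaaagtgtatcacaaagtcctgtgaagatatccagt
Lefty1 probe, first 30 bases: ctttcatgcaaatctgaagtgctcattata
Lefty2 probe, first 30 bases: ttgtcctaacttagtgctctcgtcagacct

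In mm9, the build named in the file headers, the Inhba probe lies at chr13:16118634-16118693. The Fst probe is given as chr13:115244692-115245364, a span of 673 bases for 60 letters, so its target is split in the genome. The Lefty1 probe lies at chr1:182868137-182868196 and the Lefty2 probe at chr1:182827977-182828036, with starts 40160 bases apart on the same chromosome. The Lefty1 and Lefty2 probes matched at no more than 20 bases in their best ungapped alignment, and their longest shared run was 7 bases, so the 2 spots read different stretches of these paralogs. Which exon or untranslated region a probe lies in was not determined here, because no annotation of that build was used.

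Both arrays were on the same slide and read in the same scan, and 46.1% of gene probes at passage 20 and 45.5% at passage 5 were well above background, the scanner software's flag for signal clearly over the local background. From a list of hepatoblast markers, Krt8, Krt18, Krt19, Afp, Hnf4a, Foxa2 and Sox9 were well above background on both arrays. Epcam (151 at passage 20, 431 at passage 5) and Prox1 (200 and 126) were also detected but dim. Of 12 hepatoblast markers 11 were measured, Dlk1 being the exception; Cdh1 was 2.89-fold and Prox1 2.02-fold higher at passage 20, Epcam was 2.24-fold lower, and the other 8 were within 2-fold. Of 4 hepatocyte genes, Alb, Ttr and Cyp3a11 lacked that flag at both passages, and Apoa1 had it at passage 5 only, with 25.9 at passage 20 against 144 at passage 5. None of 7 pluripotency and early embryo markers on the array, among them Pou5f1 and Nanog, was well above background. Signals are the scanner's processed intensities. Levels are log2 signals after subtracting the 75th percentile over gene probes of the same array, and a positive difference means a higher level at passage 20. Errors after ± are the scanner software's own estimate for single spots, which covers the array measurement but not variation between cultures.

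Of the 10 members, 7 were well above background, all 7 on both arrays, and 3 lacked the flag on both. At passage 20 the activin subunit gene Inhba was 2.30-fold higher, while the inhibitor genes Lefty1 and Fst were 3.21-fold and 2.38-fold lower. The receptor genes Acvr1b and Acvr2a, the second activin subunit gene Inhbb and the follistatin relative Fstl3 were within 2-fold. Nodal, its coreceptor gene Tdgf1 and Lefty2 gave no usable signal at either passage. With 2-fold as the threshold, 1 of 7 measured members was higher, where 3.26% of the 11797 measured genes were, and 2 of 7 were lower, where 5.74% of those genes were. Counting only genes above background on both arrays, as these 7 were, 2.47% of genes were higher and 3.98% lower. The median difference of the 7 measured members was 0.12 log2, against 0.070 for all measured genes.

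**Figure D1:**
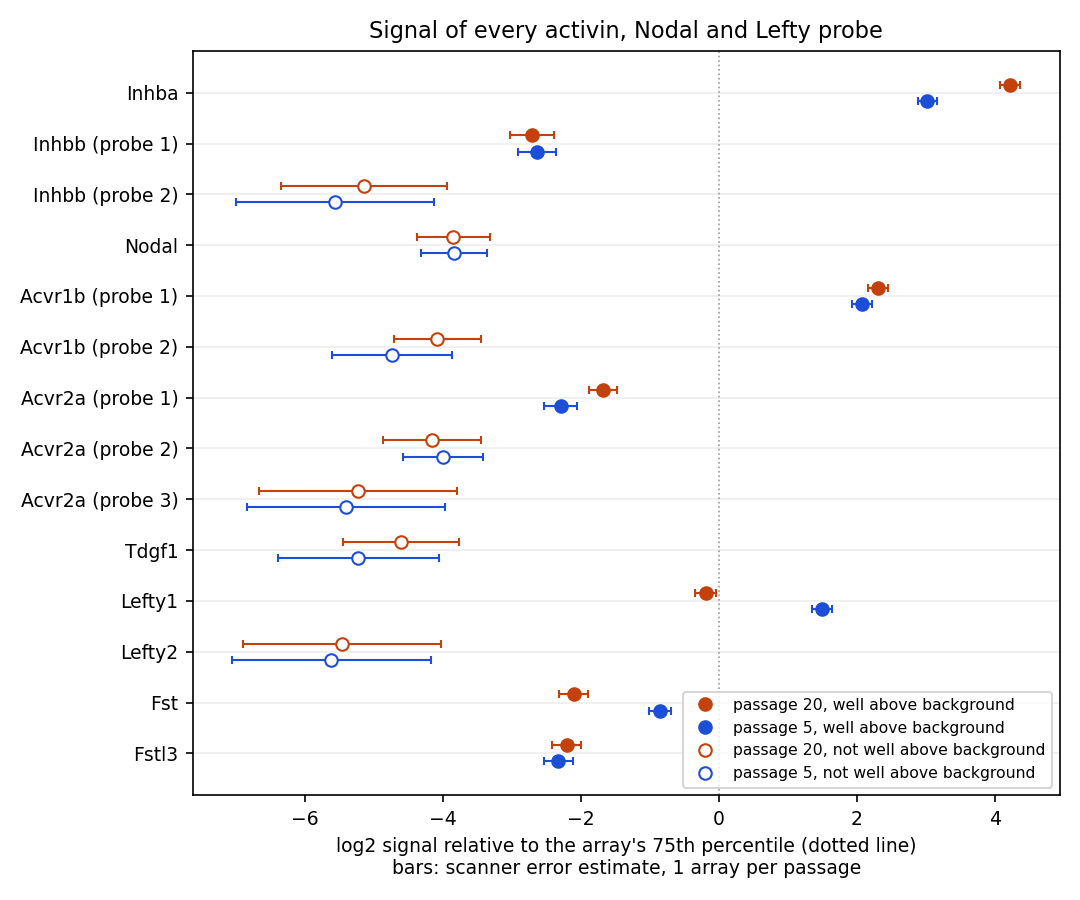
Level of each of the 14 probes (rows, grouped by gene) as log2 signal relative to the array's 75th percentile, at passage 20 (upper point of each row) and passage 5 (lower point), with 1 array each. Bars are the scanner's error estimate and hollow points were not well above background; Inhba lies higher at passage 20, Lefty1 and Fst lie lower, and every probe of Nodal, Tdgf1 and Lefty2 is hollow.

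Among the ligand genes, Inhba, which makes the subunit of activin A, was the higher one. Its probe gave a signal of 16002 at passage 20, against 8842 at passage 5. The levels were 4.23 ± 0.14 log2 at passage 20 and 3.03 ± 0.14 at passage 5, a difference of 1.20 ± 0.20, so the scanner errors of the 2 arrays do not overlap. Among all measured genes, 237 (2.01%) had a difference at least as high as that of Inhba. The excess is close to the threshold. It was 0.99 log2 with scaling to spike-in RNA and 0.89 with each array centred on its median, just under 2-fold in both. The direction held under all 11 alternatives, but some of these could not move it. Averaging a gene's probes and the 2 filters on dim probes return the main value for every measured member. Each has 1 measured probe, above background on both arrays. Keeping outlier-flagged spots changes only the scaling, as no member spot was flagged.

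Inhbb, which encodes the subunit of activin B, was close to background and similar on both arrays. Its brighter probe (chr1:121312083-121312142, mm9) gave 131 at passage 20, against 174 at passage 5, a difference of -0.068 ± 0.42 log2. That error is wide enough to hold differences of either sign, and the sign turned under normexp background correction (0.13). The other Inhbb probe lacked the flag at both passages. Nodal, with 1 probe, gave 59.1 at passage 20 and 75.9 at passage 5, with no flag on either array; a level below what the array can separate from background is not shown to be absent.

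The start regions of the 2 activin subunit genes also differ in letters, and are shown because Inhba passed 2-fold and Inhbb did not. Any link between these letters and the difference between passages was not tested. Each sequence, from RefSeq (GRCm38.p6), runs from 250 bases before to 50 bases after the annotated start site; capitals mark the letters TATAAA, searched on the strand of the gene.
Inhba, chr13:16011601-16011900, plus strand: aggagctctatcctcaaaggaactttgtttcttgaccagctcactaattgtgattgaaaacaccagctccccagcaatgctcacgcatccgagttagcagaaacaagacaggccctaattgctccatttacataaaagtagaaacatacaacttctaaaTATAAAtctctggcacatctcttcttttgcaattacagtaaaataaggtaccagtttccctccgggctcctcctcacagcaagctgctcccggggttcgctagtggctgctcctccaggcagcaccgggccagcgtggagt
Inhbb, chr1:119422199-119422498, minus strand: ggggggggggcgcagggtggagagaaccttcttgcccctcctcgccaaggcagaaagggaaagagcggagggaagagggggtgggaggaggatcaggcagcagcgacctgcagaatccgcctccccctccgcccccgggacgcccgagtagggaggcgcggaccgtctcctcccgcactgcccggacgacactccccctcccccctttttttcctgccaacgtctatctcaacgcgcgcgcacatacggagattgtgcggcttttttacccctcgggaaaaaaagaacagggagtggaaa

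The Inhba window was 47.7% G and C with 7 CG pairs, and the Inhbb window 64.3% with 23. TATAAA occurred once in the Inhba window, starting 91 bases before the start site, and not in the Inhbb window; 8.28% of the 32544 RefSeq start regions of this length held it. The core letters known to be bound by SMAD proteins, CAGAC on either strand, were in neither window, although 49.5% of all windows held them. The FOXH1 letters AATCCACA and AATACACA on either strand were in neither window (0.854% and 0.983% of all windows). Of the other members' windows, those of Acvr2a, Tdgf1 and Fstl3 held CAGAC and those of Nodal and Acvr1b did not. These are letter matches only and say nothing about binding. RefSeq start regions were matched for 7 of the 10 members; Lefty1, Lefty2 and Fst are named only.

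The receptor genes were detected and within 2-fold. Acvr1b, encoding the type I receptor ALK4, gave a signal of 4239 at passage 20, against 4581 at passage 5 (chr15:101043956-101044015, mm9). After scaling the difference was 0.24 ± 0.20 log2, about the size of the scanner error, and it was 0.019 under spike-in scaling and -0.076 under median centring. A second Acvr1b probe was below the flag at both passages.

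Acvr2a, encoding the type II receptor, gave 267 at passage 20 and 221 at passage 5 with its brightest probe (chr2:48755621-48755680, mm9). The difference of 0.62 ± 0.31 log2 is a 1.53-fold excess at passage 20. It was positive under all 11 alternatives (0.31 to 0.62), some of which could not move it, and under 2-fold in each. Of the measured genes, 9.39% had a difference at least as high. The other 2 Acvr2a probes were below the flag at both passages, as was a probe filed under the clone AK041319, which the array describes as this receptor and which lies outside the members. The single probe of Tdgf1, the coreceptor gene for Nodal, gave 34.9 at passage 20 and 29.0 at passage 5, below the flag on both arrays.

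The secreted inhibitors held both members that were lower. Lefty1 gave a signal of 748 at passage 20, against 3058 at passage 5, which after scaling is a level of -0.19 ± 0.15 log2 at passage 20 and 1.495 ± 0.14 at passage 5. The difference was -1.68 ± 0.21 log2, the largest in size among the 7 measured members. Of the 11797 measured genes, 243 (2.06%) had a difference as low or lower. Lefty1 stayed more than 2-fold lower under all 11 alternatives, between -1.995 and -1.51 log2, though some of these could not move it.

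Lefty2, the paralog on the same chromosome, gave 19.4 at passage 20 and 22.1 at passage 5. Both are values that the scanner software substitutes when a spot does not exceed noise, so no difference was measured. Lefty1 was thus detected on both arrays while its paralog was not detected on either by the 1 probe each has, and each pair of values belongs to its own probe, whose brightness cannot be set against that of another.

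Fst, encoding follistatin, gave a signal of 198 at passage 20, against 601 at passage 5. Its level was -2.10 ± 0.21 log2 at passage 20 and -0.85 ± 0.15 at passage 5, a difference of -1.25 ± 0.26. It was lower under all 11 alternatives, some of which could not move it, and past 2-fold in 10 of them. With normexp background correction it was -0.72 log2, a smaller deficit. As a gauge of array noise near this brightness, the 10 repeat spots of Bambi, a decoy receptor gene that dampens the same pathway, ranged from 246 to 289 at passage 20 and from 552 to 631 at passage 5. Their differences had a mean of -0.77 log2 and an SD of 0.078 (10 spots, technical error only). Across 17 repeat-spotted probes with signals in the range of Inhbb to Fst, the median SD of a spot's difference was 0.15 log2, well under the difference of Fst.

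Fstl3, which encodes the other activin-binding follistatin relative among the members, was similar on both arrays. It gave 185 at passage 20 and 216 at passage 5, with a scaled difference of 0.12 ± 0.30 log2. Its sign depended on the scaling: it was -0.099 under spike-in scaling, -0.050 with the authors' deposited table and 0.40 with normexp. Of the 4 inhibitor genes, therefore, 2 were lower, 1 was within 2-fold and 1 was not measured.

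**Figure D2:**
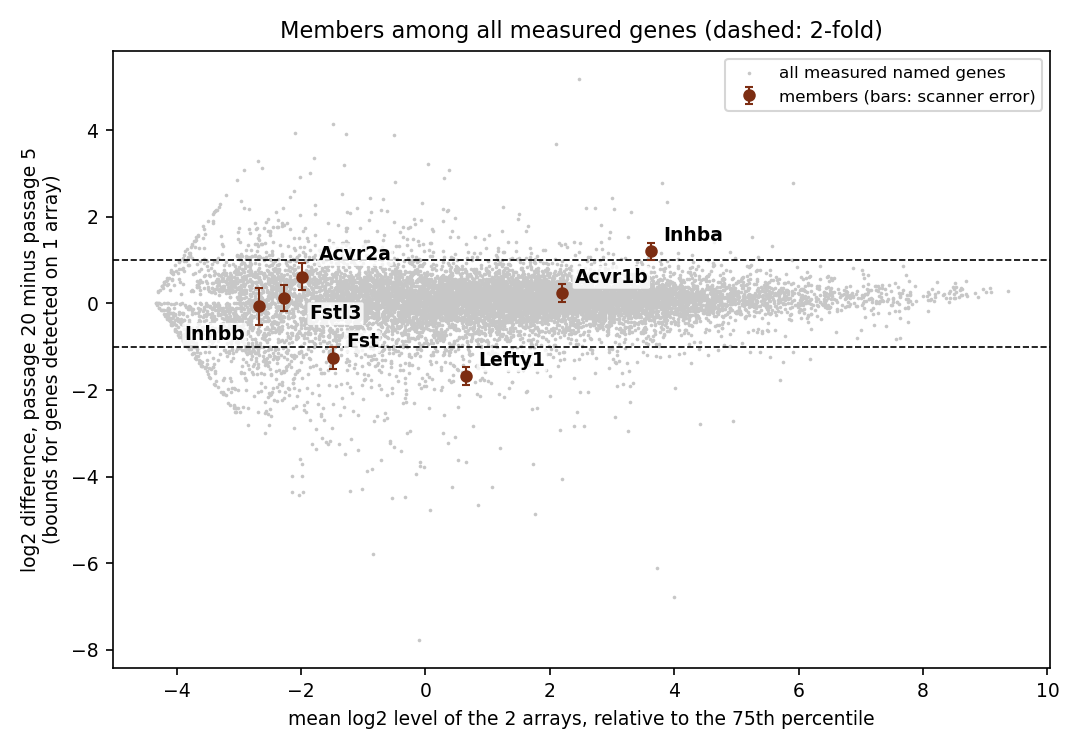
Difference between passages (vertical axis, log2, passage 20 minus passage 5) against the mean level of both arrays (horizontal axis, log2 relative to the 75th percentile) for the 11797 measured genes in grey and the 7 measured members in brown, with scanner error bars. Inhba lies above the upper 2-fold line, Lefty1 and Fst lie below the lower one, and the other 4 members lie between the lines.

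The gap between Inhba and another member does not depend on how the arrays were aligned by a constant, since such a shift moves all differences alike. Inhba, Lefty1 and Fst are the members past 2-fold, so gaps between them are large by choice. The other measured ligand and inhibitor genes, Inhbb (-0.068 log2) and Fstl3 (0.12), were close to each other. Both lay below Inhba (1.20). Of the 11 alternatives, only quantile normalization, cyclic loess, normexp and the authors' values could move such a gap. The difference of Inhba exceeded that of Lefty1 by 2.89 log2, with a range of 2.61 to 2.89 over the 11 alternatives. It exceeded that of Fst by 2.46 log2 (1.82 to 2.54) and that of Acvr1b by 0.97 (0.93 to 0.98). At passage 20 the signal of Inhba was thus higher relative to those of Lefty1, Fst and Acvr1b, in a comparison of 1 array with 1 array. Acvr2a, the other measured receptor gene among the members, was at 0.62 log2 and so lay nearer to Inhba than Acvr1b did.

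**Figure D3:**
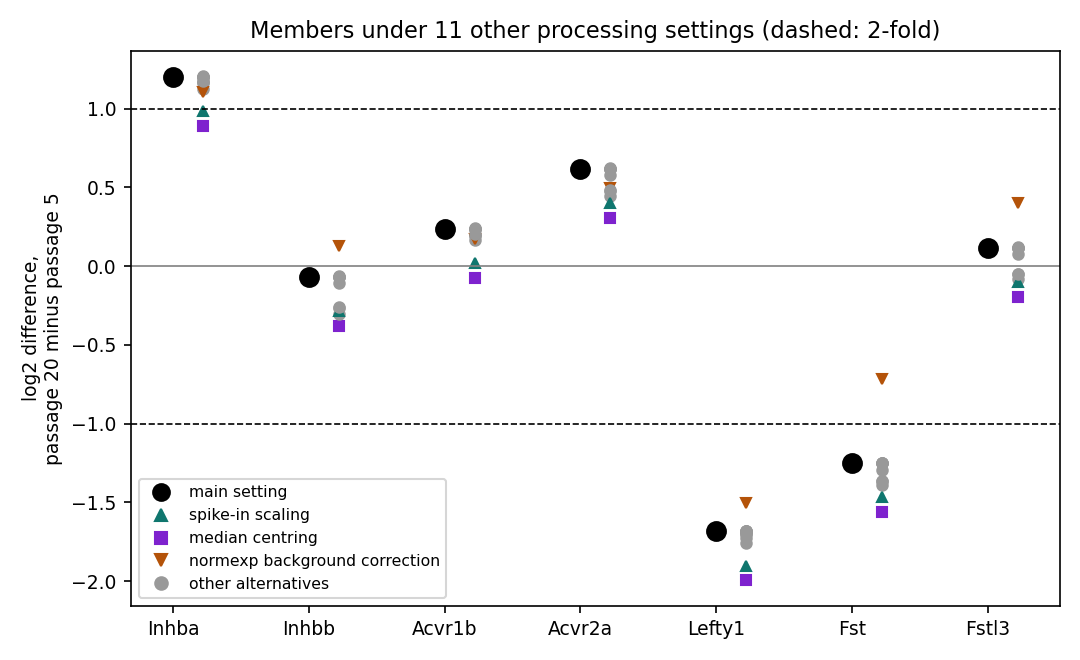
Difference between passages (log2, passage 20 minus passage 5) of the 7 measured members under the main setting (black) and 11 other settings, with dashed lines at 2-fold. Lefty1 stays below -1 throughout, Inhba dips under 2-fold with spike-in scaling and median centring, and Fst does so with normexp.

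Other genes of the pathway, each read by its brightest probe, were mostly within 2-fold. Of 62 further pathway genes on the array, 36 were measured, where 58.8% of all named genes were. Of these 36, 4 were at least 2-fold lower, 0 higher and 31 within 2-fold, with a median of -0.090 log2. The remaining one, Wfikkn1, was above background at passage 5 only, with 64.7 at passage 20 against 146 at passage 5, and its bound of at least 1.21-fold lower does not place it inside or outside 2-fold. The 4 were Tgfb1 (a TGF-beta ligand), Fstl1 (a secreted follistatin-like glycoprotein), Pcsk5 (a proprotein convertase) and Pmepa1 (a SMAD-induced feedback inhibitor). Among all measured genes 3.26% were higher and 5.74% lower. With normexp 3 of these 36 genes were lower, Tgfb1 being the one inside 2-fold, and with median centring 6 were, Bambi and Bmp1 included. The count of 0 higher genes depends on the choice of probe. The dimmest of 3 Ski probes was 3.50-fold higher, and 1 of 2 Zfyve9 probes, above background at passage 20 only, was at least 3.19-fold higher, so Zfyve9 counted as higher when probes of a gene were averaged. Cer1, a Nodal inhibitor below the flag at both passages, stands in 2 of the lists.

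Among 11 other ligand genes 5 were measured. Tgfb1 gave 478 at passage 20 and 1363 at passage 5 (2.25-fold lower), Tgfb3 was 1.52-fold higher, and Gdf15 and Tgfb2 were at -0.32 and 0.18 log2. The hepatocyte activin genes Inhbc and Inhbe, and Inha, whose product turns activin subunits into inhibins, were below the flag at both passages. Of 11 other receptor genes 5 were measured, all within 2-fold. Cfc1, the Cripto relative Cryptic, gave 208 at passage 20 and 162 at passage 5, a difference of 0.71 log2. Acvr1 was at -0.33. Tgfbr2 and Bmpr2 were at 0.49 and 0.18 by their brightest probes and at 0.95 and 0.56 by another. The activin type II receptor gene Acvr2b and the type I receptor gene Acvr1c (ALK7) were below the flag at both passages.

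Of 13 other extracellular inhibitors and processing enzymes, 8 were measured and 2 were at least 2-fold lower. Fstl1 gave 792 at passage 20 and 3567 at passage 5, 3.54-fold lower. Pcsk5 was above background at passage 5 only, with 28.1 at passage 20 against 465 at passage 5, at least 3.87-fold lower (2 of its 6 probes measured). Bmp1, a metalloproteinase of the matrix, was at -0.82 log2 by its brightest probe and 0.20 by another. Bambi was at -0.77, as given above.

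The intracellular machinery was the most completely detected group: 15 of 16 genes were measured by their brightest probe and 14 were within 2-fold. The 16th, Zfyve9 (SARA, an anchor of SMAD2 and SMAD3), was measured only by its other probe, with 272 at passage 20 against 23.4 at passage 5. Ski, a corepressor of SMAD proteins, was at 0.22 log2 by its brightest probe and 1.81 by another, which gave 490 at passage 20 against 178 at passage 5. Smad2 was at -0.38 log2, while Smad3 was at -0.30 by its brightest probe and 0.62 by the other. Skil, a relative of Ski, was at -0.34, and Drap1, a transcriptional corepressor that binds FOXH1, at -0.31. Foxh1, the SMAD partner at Nodal target genes, gave 1778 at passage 20 and 1964 at passage 5, a difference of 0.20. The measured exception by brightest probe was Pmepa1, with 441 at passage 20 against 1448 at passage 5 (-1.37 log2, its other probe -1.17). Smad7, another feedback inhibitor, was at -0.082 log2. Among 12 Nodal and activin targets of the early embryo, 3 were measured, all within 2-fold. They were Gata6 (-0.57 log2), Hhex (-0.15, its other probe 0.22) and Foxa2 (-0.11). The 3 measured Gata6 probes ran from -0.57 to 0, the 0 being a bound from a probe above background on 1 array only. Eomes, Gsc and Mixl1 were below the flag at both passages.

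**Figure D4:**
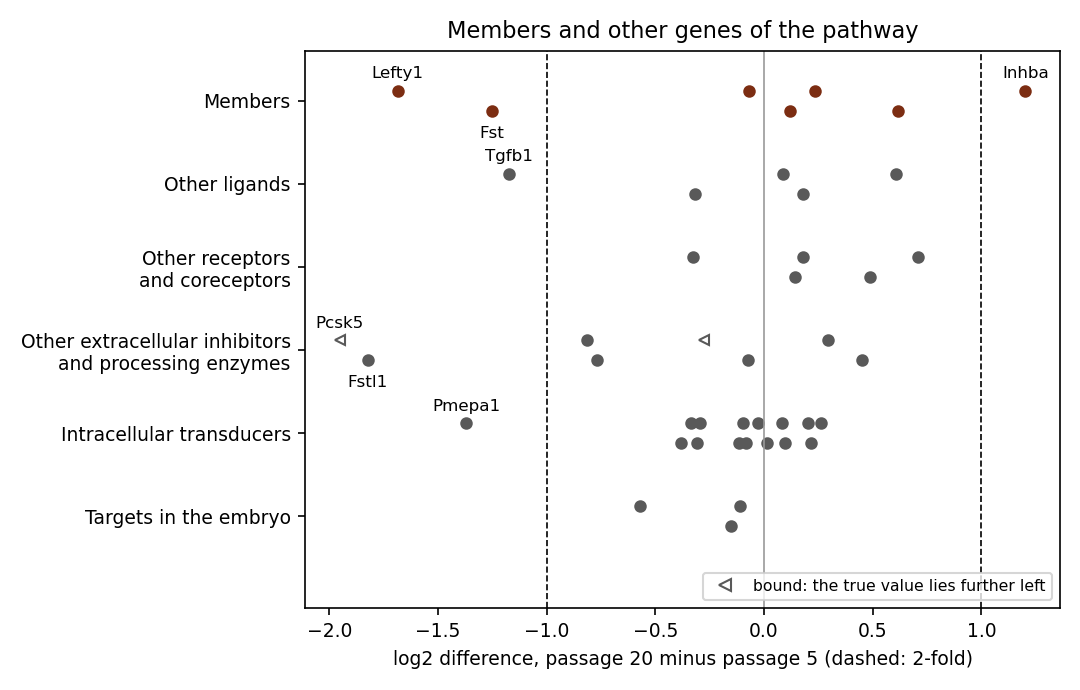
Difference between passages (log2, passage 20 minus passage 5) of the 7 measured members and of the measured genes in 5 further pathway lists, each point 1 gene, open triangles being bounds. Inhba is the point past 2-fold on the right; Lefty1, Fst, Tgfb1, Fstl1, Pcsk5 and Pmepa1 lie past it on the left.

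Markers of other cell types moved in the same direction as Lefty1 and Fst in part. Of 6 stellate cell and fibroblast markers 1 was measured, Dcn (decorin), at least 15.9-fold lower at passage 20, and the summed signal of the list was 185 at passage 20 against 2042 at passage 5. Nearly all of that passage 5 sum was Dcn, since the other 5 markers summed to 154 at passage 20 against 124 at passage 5, none of them above background; 1 of the 2 Dcn probes was used, and Col1a1, Pdgfrb and Des were below the flag at both passages. Of 5 mesothelial markers 3 were measured: Upk3b and Wt1 were at least 4.34-fold and 2.02-fold lower and Msln was within 2-fold, and the summed signal, nearly all of it Msln, was 188399 at passage 20 against 172490 at passage 5, while the other 4 summed to 84.1 at passage 20 against 866 at passage 5. None of 4 endothelial markers was measured. Of 3 leukocyte markers 1 was measured, Cd68, at 0.34 log2, with signals of 478 at passage 20 and 481 at passage 5. The part of other cell types in the lower signals of Lefty1 and Fst was not tested. In such bulk RNA, fewer cells of a type and less RNA per cell cannot be told apart.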

How the data were processed

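Amplified Cy3-labelled RNA of each passage was read on its own 1-colour Agilent mouse array, per the labels' protocols. Per the file headers, the authors deposited spot intensity made with Feature Extraction 10.7.3.1, background-subtracted, detrended and not normalized between arrays; the scanner error, mean and local background intensity were also deposited, as were flags (other columns). The authors' deposited log2 table matched log2 scanner signals (r = 0.9999 in each column, medians 6.31) with equal sorted values, as after quantile normalization; the tool behind it is not given in the sources used.

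Spots with an outlier flag on either array were dropped (132 of 43379; none of a member), leaving 41158 gene probes, none saturated. Repeat spots of a probe were averaged as log2 signals, from which the array's 75th percentile was subtracted (853 for passage 20 and 1085 for passage 5, as signals). The brightest probe stood for a gene; names came from RefSeq (GRCm38.p6) by accession (27651 probes), symbol (5592) or older symbol (470), with 7445 unnamed. A gene was measured if that probe was well above background on at least 1 array. One above it on a single array has a bound against the higher of its own dim value and the dim array's lowest detected level (-3.17 log2 at passage 20, -3.32 at passage 5), written as at least N-fold. With 1 array per passage there is no test. Among 116 probes with at least 5 spots, the median SD of a spot's difference was 0.039 log2 and the 95th percentile of deviations 0.15; the number of arrays limits the precision. Calls were tested on simulated data.

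All 10 members are named with every probe. Of the other pathway genes, up to 4 per list with the largest differences are named, with detection checks; Smad3, Smad7, Foxh1, Ski, Zfyve9 and Wfikkn1 were added after their values were seen. The members, lists and alternatives were chosen with earlier results of these data known. Alternatives were quantile, median, cyclic loess, detected-probe and spike-in scaling, normexp (offset 50, limma 3.58.1), the authors' values, flagged spots kept, mean over probes, 2 other filters on dim probes and thresholds of 1.5-fold and 4-fold. Versions were R 4.3.3 and Python 3.11.15.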

Additional observations from a re-analysis of the deposited data

How the results depend on the processing

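No paired analysis was possible because each passage has 1 array. Over the settings tried, the count of higher members was 0 with median centring, 0 with spike-in scaling, 0 at 4-fold and 2 at 1.5-fold (Inhba and Acvr2a), against 1 in the main setting. The count of lower members was 1 with normexp and 0 at 4-fold, against 2. The median difference of the measured members, 0.12 log2, changed sign with the scaling: it was -0.053 with quantile normalization, -0.19 with median centring, -0.080 with cyclic loess, -0.099 with spike-in scaling and -0.050 with the authors' deposited table. The median of all measured genes, 0.070 in the main setting, was -0.24 with median centring, -0.15 with spike-in scaling and -0.020 with cyclic loess, but stayed positive with quantile normalization (0.015) and the authors' values (0.022). Why Fst dropped under 2-fold with normexp was not tested. Across all genes 385 were higher and 677 lower in the main setting; the counts were 193 and 1127 with median centring, 230 and 970 with spike-in scaling, 267 and 843 with cyclic loess, 248 and 398 with normexp, 266 and 428 with both arrays above background, 1230 and 1388 at 1.5-fold and 59 and 161 at 4-fold. Without a filter on dim probes 1286 genes were higher and 1286 lower, and the 3 members not above background were then all within 2-fold. Brightness limits Inhbb and Fstl3, whose scanner errors of 0.42 and 0.30 log2 exceed their differences.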
